A study of Mus musculus with 12 samples.

Results

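Macrophage, monocyte and MHC class II genes were followed in mouse brown adipose tissue (BAT), the fat that makes heat, in mutants of the brown fat transcription factor Ebf2 and their controls. The group is a list of 37 gene symbols chosen by name, and all 37 were found among the 24197 genes of the count table. With edgeR 33 of the 37 genes passed the test in no comparison of genotype or temperature, and 4 passed it in at least 1. Other tools added calls, DESeq2 of Ctss, Mmp12 and Cd14 and limma-voom of Csf1r, Mrc1, Cd14 and Mmp12. Lgmn, a lysosomal protease, was lower in mutants at room temperature (RT) and rose in mutants in the cold. Cx3cr1, a chemokine receptor, and Clec4f, a lectin, also rose in mutants in the cold, and Cd163, a scavenger receptor, fell in the cold when both genotypes were averaged.

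The study sequenced total RNA of BAT in 12 libraries, in 4 groups of 3, from mice aged 8 to 10 weeks. The groups were mutant cold, control cold, mutant RT and control RT. Mutant mice were Adipoq-Cre+; Ebf2 fl/fl and control mice were Adipoq-Cre-; Ebf2 fl/fl, so every animal carried the floxed Ebf2 alleles, and Cre was driven by the Adipoq promoter, which is active in adipocytes and not in macrophages. Cold was 1 week at 4 degrees C. The labels do not say whether the replicates are separate animals, so the p-values measure the spread between these libraries, which may be technical. Library totals ran from 25835650 to 37927038 counts. At RT the targeted gene Ebf2 was at 49.8 ± 13.9 CPM in libraries labelled mutant, against 47.8 ± 16.1 CPM in control libraries (SD, n = 3 each; edgeR adjusted p = 0.931), and in the cold at 25.8 ± 3.73 CPM, against 45.4 ± 6.04 CPM (adjusted p = 0.153), so each genotype direction given here rests on the labels. CPM is the count scaled to a common library total, on TMM-scaled library sizes.

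Macrophages are phagocytes that live in every tissue and are renewed from blood monocytes or by division in place. They are kept alive by signals through the receptor Csf1r, take up particles through scavenger, complement and Fc receptors, and break them down in lysosomes. Fragments of the proteins they take up are loaded onto MHC class II molecules and shown to helper T cells, while MHC class I molecules, made by nearly all cells, show fragments of a cell's own proteins. In adipose tissue macrophages clear dead adipocytes and spent lipid. In bulk tissue, fewer cells of a type and less RNA per cell cannot be told apart.

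The defining macrophage genes were present in all 12 libraries. Csf1r ran from 12.3 to 33.1 CPM, Cd68 from 3.16 to 14.9 CPM, Mrc1 from 8.94 to 22.5 CPM and C1qa from 14.3 to 57.0 CPM. Per kilobase of exon, the highest mean levels over the 12 libraries were those of Cd74 at 63.7 CPM per kb, Lyz2 at 49.4, H2-Eb1 at 35.0 and C1qa at 29.4. The lowest were Trem2 at 0.184, Mmp12 at 0.149 and Clec4f at 0.0684 CPM per kb. The antigen presentation, lysozyme and complement genes thus led this order, and Trem2 and Mmp12, genes of lipid-associated and injury-associated macrophages, stood near its end. The lengths join all annotated exons of a gene, 4946 bases for Trem2 and 7237 for Mmp12. A gene whose transcripts in this tissue are shorter than that would stand higher in the order.

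All 37 genes passed the filter on low counts and were tested with edgeR's quasi-likelihood test, with p-values adjusted over 15265 genes and called below 0.05. Clec4f passed the filter only through the mutant cold libraries, the group where it is high. Between mutants and controls at RT, 1 of the 37 was called, Lgmn, which was lower. Over all genes 6.24% were called there, and 2.32% were called lower in mutants. Between mutants and controls in the cold, 0 of 37 were called in edgeR, against 1.12% of all genes, although 7 had an unadjusted p under 0.05. DESeq2 called 1 of the 37 in that comparison (Ctss) and limma-voom called 1 (Clec4f). Between cold and RT in mutants 3 were called, all higher (Lgmn, Cx3cr1 and Clec4f), against 10.0% of all genes called higher and 17.4% called in either direction. Between cold and RT in controls 0 were called in edgeR, against 6.62% of all genes (4.31% higher and 2.31% lower), with 2 at an unadjusted p under 0.05. DESeq2 called 1 of the 37 there (Cd163) and limma-voom 2 (Cx3cr1 and Mmp12). With both genotypes averaged, 3 rose in the cold (Lgmn, Cx3cr1 and Clec4f) and 1 fell (Cd163), against 24.8% of all genes called. The 37 genes were measured less precisely, with a median SE there of 0.30 against 0.16 over all genes. The shares called therefore do not compare sizes of change. With both temperatures averaged, edgeR called 0 of 37 between mutants and controls, against 8.1% of all genes (5.18% higher and 2.93% lower). There 5 had an unadjusted p under 0.05, DESeq2 called 2 (Lgmn and Mmp12) and limma-voom 2 (Clec4f and Lgmn). For the difference between the genotypes' cold responses, edgeR called 0 of 37, against 0.478% of all genes, with 1 at an unadjusted p under 0.05, and DESeq2 and limma-voom each called Lgmn.

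Lgmn encodes legumain, an asparaginyl endopeptidase that trims and activates other lysosomal proteases and cuts antigens for MHC class II. Its level was 33.8, 25.0 and 33.4 CPM in mutant RT libraries, against 52.7, 57.9 and 44.7 CPM in control RT libraries. The mutant and control libraries did not overlap at RT, and the log2 fold change was -0.75 ± 0.15 (SE, adjusted p = 0.0120). In the cold the levels were 66.4, 57.9 and 53.9 CPM in mutants, against 65.0, 56.9 and 55.0 CPM in controls. The genotypes overlapped there, and the log2 fold change was 0.01 ± 0.15 (adjusted p = 0.981). Every mutant cold library lay above every mutant RT library, and Lgmn rose in mutants in the cold by 0.95 ± 0.15 on the log2 scale (adjusted p = 0.00143), while in controls the log2 fold change was 0.19 ± 0.15 and not called (adjusted p = 0.482). The difference between these cold responses was 0.76 ± 0.21 and was not called in edgeR (adjusted p = 0.163), whereas DESeq2 gave an adjusted p of 0.0374 and limma-voom 0.0250. The RT call was lost without mutant RT library 2 (adjusted p = 0.0640), when only the RT groups were fitted (0.0526) and without the 4 libraries richest in muscle transcripts (0.123). The last of these left 1 control RT library, at a log2 fold change of -0.97, and over all settings tried the value lay between -0.97 and -0.62. The cold call in mutants held when each of the 12 libraries was left out in turn.

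Cx3cr1 is the receptor for fractalkine, a membrane-bound chemokine encoded by Cx3cl1, and marks patrolling monocytes and some tissue macrophages. It stood at 1.5, 1.27 and 2.01 CPM in mutant cold libraries, against 0.509, 0.504 and 0.627 CPM in mutant RT libraries. These groups did not overlap, and the log2 fold change was 1.54 ± 0.41 (adjusted p = 0.0240). In controls the levels were 1.65, 2.01 and 1.07 CPM in the cold, against 0.932, 1.24 and 0.487 CPM at RT. Those groups overlapped through control cold library 3 and control RT library 2, and the log2 fold change of 0.84 ± 0.40 was not called (adjusted p = 0.232). Averaged over genotypes the rise was 1.19 ± 0.29 (adjusted p = 0.0107). The mutant call was lost, with an adjusted p of at most 0.0854, when any of mutant RT libraries 1, 2 or 3 or mutant cold libraries 1 or 3 was left out, at log2 fold changes between 1.33 and 1.63. Without the 4 muscle-rich libraries both calls were lost, at 1.64 in mutants (adjusted p = 0.0553) and 1.11 averaged (0.0915).

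The ligand gene Cx3cl1 rose in the cold in both genotypes. It was 8.15 ± 1.18 CPM in mutants in the cold and 2.65 ± 0.178 CPM in mutants at RT (SD, n = 3 each), a log2 fold change of 1.62 ± 0.20 (adjusted p = 0.000327). In controls it was 9.72 ± 0.846 CPM in the cold and 5.54 ± 1.12 CPM at RT, a log2 fold change of 0.81 ± 0.19 (adjusted p = 0.0283), a call lost without control RT library 1 or 3 or any of the 3 control cold libraries (adjusted p up to 0.109). At RT Cx3cl1 was lower in mutants than in controls, with a log2 fold change of -1.06 ± 0.19 (adjusted p = 0.00733), a call lost when only the RT groups were fitted (adjusted p = 0.0549) and without the 4 muscle-rich libraries, which left 1 control RT library (0.0875). The log2 fold changes in these fits were -1.06 and -1.34. Cx3cr1 at RT had a log2 fold change of -0.69 ± 0.41 between mutants and controls and was not called (adjusted p = 0.397).

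Clec4f is a C-type lectin that in mice is best known as a marker of Kupffer cells, the macrophages of the liver. It had 20, 16 and 22 counts in mutant cold libraries, against 1, 0 and 0 counts in mutant RT libraries. Control libraries held 6, 0 and 0 counts in the cold and 0 in each of the 3 at RT. Only the mutant cold counts reached the filter's minimum of 10, so Clec4f entered the tests through the group where it is high. Its calls are therefore no independent support for a rise in that group. All 3 mutant cold libraries were above every other library, and a count of 0 allows up to 3 counts, which is 0.0791 to 0.116 CPM at these depths. The 58 counts of mutant cold against 1 of mutant RT gave a depth-scaled ratio of 59.1 with a 95% exact interval from 10.2 to 2373 for counting error only, and Clec4f was called there (adjusted p = 0.0215). The call was lost without mutant RT library 1, 2 or 3 or mutant cold library 1 or 2 (adjusted p between 0.0510 and 0.0804). Between mutants and controls in the cold, 58 against 6 counts gave a ratio of 8.52 with an interval from 3.69 to 24.2, and this difference was not called (adjusted p = 0.221). In controls the 6 cold counts, all in library 1, set against 0 at RT gave a ratio whose 95% exact interval began at 1.33, and the difference was not called (adjusted p = 0.223). The call averaged over genotypes (adjusted p = 0.0151) was lost without control cold library 1, at an adjusted p of 1.00. Both calls were lost without the 4 muscle-rich libraries (adjusted p = 0.0941 in mutants and 0.105 averaged). Mutant cold library 3 differed from the rest in another way, since 5 epithelial genes summed to 239 CPM there against 2.62 to 24.1 CPM in the other 11 libraries, and its Clec4f count was close to those of the other mutant cold libraries.

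The other genes of resident macrophage subsets were not called in any comparison by edgeR, DESeq2 or limma-voom. Lyve1, a hyaluronan receptor of perivascular macrophages and lymphatic vessels, was 6.51, 5.36 and 8.03 CPM in mutant cold libraries, 6.23, 5.5 and 4.73 CPM in control cold libraries, 10.6, 6.77 and 11.3 CPM in mutant RT libraries and 12.6, 4.69 and 3.84 CPM in control RT libraries. The highest value, 12.6 CPM, was control RT library 1, and the other control RT libraries were the lowest of all 12 for this gene. Without control RT library 1 Lyve1 was called between mutants and controls at RT, which makes 2 of 37 with Lgmn. Timd4, a receptor for phosphatidylserine on dying cells, ran from 0.217 to 1.43 CPM, and Folr2, a folate receptor of resident macrophages, from 3.23 to 11.5 CPM. Folr2 was at 5.12 ± 1.39 CPM in mutant cold libraries and at 8.11 ± 1.03 CPM in control cold libraries (SD, n = 3 each), without overlap, and the log2 fold change of -0.66 ± 0.41 was not called (adjusted p = 0.464).

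**Figure D1:**
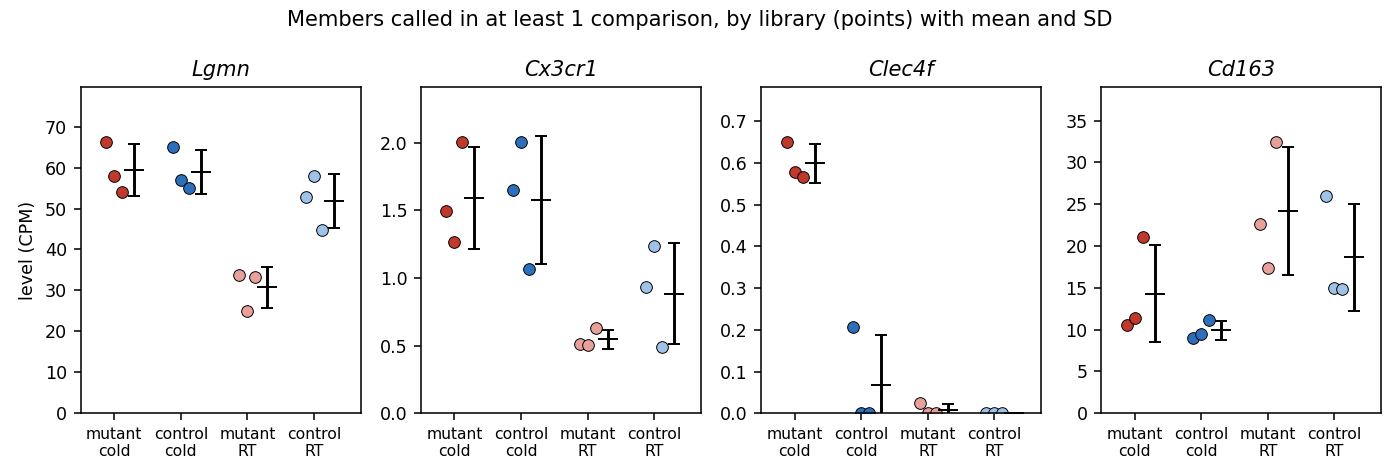
Levels of Lgmn, Cx3cr1, Clec4f and Cd163 in CPM (y axes, each starting at 0) in the 4 groups (x axes), with 1 point per library and the mean with SD of 3 libraries beside it. Mutant RT libraries are the lowest for Lgmn, Clec4f is near 0.6 CPM in the 3 mutant cold libraries, at 0.207 CPM in 1 control cold library and at or near 0 in the other 8, and Cd163 is low in the cold apart from mutant cold library 3 at 21.0 CPM.

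Among the lineage and scavenger genes, Cd163 moved with temperature. Cd163 clears haemoglobin bound to haptoglobin and marks resident macrophages. It stood at 10.5, 11.4 and 21.0 CPM in mutant cold libraries, against 22.6, 17.4 and 32.5 CPM in mutant RT libraries. These groups overlapped through mutant cold library 3, and the log2 fold change was -0.75 ± 0.31 (adjusted p = 0.125). In controls the levels were 9.05, 9.48 and 11.2 CPM in the cold, against 26.0, 15 and 14.8 CPM at RT. The control groups did not overlap, and the log2 fold change was -0.91 ± 0.32 in edgeR (adjusted p = 0.104), with an adjusted p of 0.0367 in DESeq2. Averaged over genotypes Cd163 fell by 0.83 ± 0.22 on the log2 scale in the cold (adjusted p = 0.0175), a call that held with each library left out and was lost without the 4 muscle-rich libraries (adjusted p = 0.188).

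The other lineage and scavenger genes were below their RT level in mutants in the cold without being called in edgeR. Csf1r, the receptor of the growth factors Csf1 and Il34, was 12.3, 12.5 and 24.9 CPM in mutant cold libraries, 31.1, 18.1 and 21.6 CPM in control cold libraries, 26.4, 23.2 and 33.1 CPM in mutant RT libraries and 31.1, 22.8 and 19.6 CPM in control RT libraries. Mutant cold libraries 1 and 2 were the lowest of the 12 and library 3 lay among the other groups, and the cold log2 fold change in mutants was -0.73 ± 0.30 (adjusted p = 0.118). Mrc1, the mannose receptor, had -0.75 ± 0.29 (adjusted p = 0.102) and Cd14, the co-receptor for bacterial lipopolysaccharide, -1.18 ± 0.48 (adjusted p = 0.122). Cd68, a lysosomal glycoprotein of phagocytes, had -0.41 ± 0.40 (adjusted p = 0.540). DESeq2 called 4 of the 37 in this comparison, with Cd14 (adjusted p = 0.0471) added to the edgeR calls, and called Cd14 averaged over genotypes as well (0.0219). Limma-voom called 7, with Cd14, Cd163, Csf1r and Mrc1 added to the edgeR calls. Without mutant cold library 3, the library rich in epithelial transcripts, 5 of the 37 were called between cold and RT in mutants: Cd14, Cd163 and Csf1r together with Lgmn and Clec4f. When mutant RT library 1, 2 or 3 or mutant cold library 1 was left out, Lgmn alone remained. Il34 fell in mutants in the cold, at 2.78 ± 0.661 CPM in the cold and 8.55 ± 0.505 CPM at RT (SD, n = 3 each), a log2 fold change of -1.62 ± 0.23 (adjusted p = 0.000721).

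For most of the remaining genes the highest value came from 1 library. Control cold library 1 held the highest of the 12 values for 25 of the 37 genes, and the highest of its group for 32. The summed level of the 37 genes was 1204 CPM in that library, against 607 and 501 CPM in the other control cold libraries. The sums were 494, 595 and 384 CPM in mutant cold libraries, 776, 610 and 651 CPM in mutant RT libraries and 909, 514 and 547 CPM in control RT libraries. Control RT library 1 was likewise the highest of its group for 33 genes. The ratio of control cold library 1 to the mean of the other control cold libraries had a median of 2.28 over 36 genes (Clec4f has no ratio, being at 0 in the others), against a median of 0.989 over all genes. It was above 1 for 32 of the 36.

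The excess was uneven among the genes. It was 4.54 for Trem2, a lipid receptor of macrophages, 4.46 for Ccr2, the receptor that brings monocytes out of the blood, 3.47 for Mpeg1, a pore-forming protein of phagosomes, and 3.29 for Ctss. It ran from 2.16 to 2.36 for the C1q genes and from 1.97 to 2.35 for the MHC class II genes. It was near or below 1 for Timd4 (0.727), Spp1 (0.739), Cd14 (0.864), Cd163 (0.877), Cx3cr1 (1.07) and Lgmn (1.16), and small for Lyve1 (1.22) and Folr2 (1.24). By role, the median excess was 1.22 for the resident-subset genes, 1.56 for the lineage and scavenger genes, 2.84 for the lysosome and defence genes and 2.91 for the lipid-associated and injury-associated genes. Within its group, control cold library 1 had no outstanding share of muscle transcripts, with 0.235% of counts against 0.0163% and 0.931% in the other control cold libraries.

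**Figure D2:**
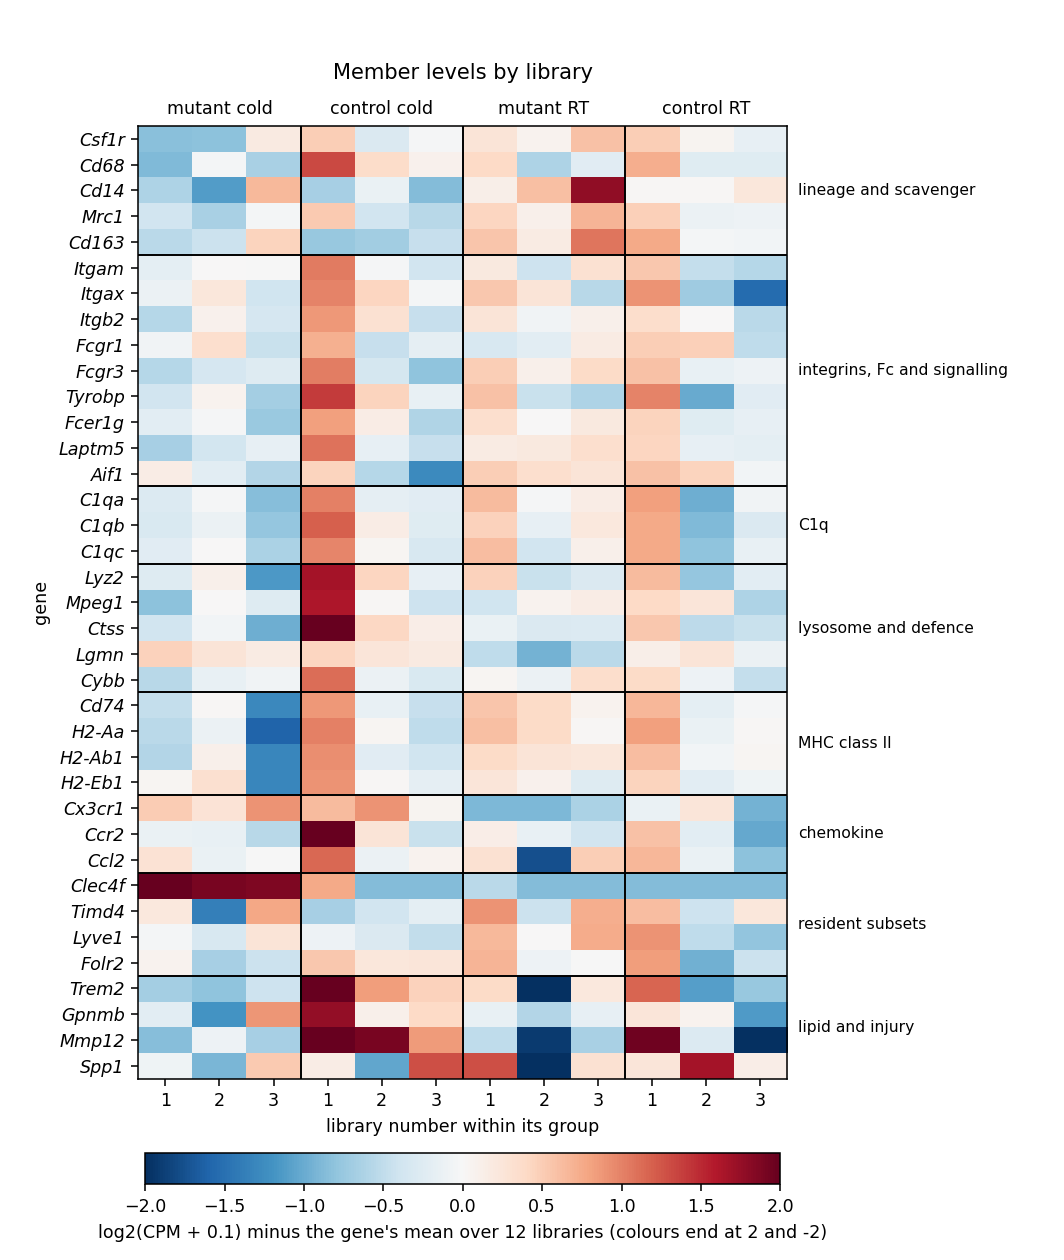
Level of each of the 37 genes (rows, grouped by role) in each of the 12 libraries (columns, by group), as log2(CPM + 0.1) minus the gene's mean over the 12 libraries, with red above and blue below the mean and colours ending at 2 and -2. Control cold library 1 is red for most rows, Clec4f is high in the 3 mutant cold libraries, and Lgmn and Cx3cr1 are blue in the 3 mutant RT libraries.

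The integrin, Fc receptor and signalling genes numbered 9. EdgeR, DESeq2 and limma-voom each called 0 of them in every comparison, and in edgeR 0 had an unadjusted p under 0.05. In the cold 8 of the 9 were below 0 between mutants and controls, with a median log2 fold change of -0.57, and in mutants 8 of 9 were below 0 between cold and RT, with a median of -0.36. The genotype count and median rested on control cold library 1, since without it 5 of the 9 were below 0 and the median was -0.08. Laptm5, a lysosomal membrane protein of blood cells, was 7.82, 9.63 and 11.1 CPM in mutant cold libraries, 26.5, 11.1 and 9.03 CPM in control cold libraries, 14.0, 14.3 and 15.8 CPM in mutant RT libraries and 16.9, 11.1 and 10.9 CPM in control RT libraries. The 3 mutant cold values lay below the 3 mutant RT values, and the log2 fold change between them was -0.62 ± 0.34 (adjusted p = 0.246). Fcgr3, a low-affinity IgG receptor, Fcer1g, its signalling chain, and Aif1, a calcium-binding protein of macrophages, also had mutant cold libraries wholly below mutant RT libraries. Their log2 fold changes were -0.73 ± 0.40, -0.48 ± 0.33 and -0.59 ± 0.43. Fcgr3 shares sequence with Fcgr2b, so its counts may hold reads of both. Itgam and Itgb2, the chains of complement receptor 3, and Itgax had log2 fold changes between -0.13 and -0.36 in mutants across temperature.

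In mutants between cold and RT, 3 of the 37 genes were higher without overlap of the groups (16.7% of all genes) and 8 were lower (16.0% of all genes). The 3 were Lgmn, Cx3cr1 and Clec4f. The 8 were Mrc1, Fcgr3, Fcer1g, Laptm5, Aif1, Cd74, H2-Aa and H2-Ab1. In controls 0 were higher without overlap (18.9% of all genes) and 2 were lower, Cd14 and Cd163 (14.4% of all genes). Over the 37 genes the median log2 fold change of cold over RT was -0.41 in mutants, with 30 below 0, and 0.26 in controls, with 27 above 0. Over all genes these medians were -0.01 in both. The mutant median was -0.166 without mutant RT library 1 and -0.612 without mutant RT library 2. When single libraries were left out the control median reached 0.675. Without control cold library 1 it was -0.19, with 24 below 0. In that fit the averaged cold comparison called 7 of the 37: Lgmn and Cx3cr1 higher, and Aif1, Cd163, Fcgr3, Laptm5 and Mrc1 lower.

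C1q starts the classical complement pathway and is made mainly by macrophages. Its subunit gene C1qa was 23.3, 27.7 and 15.5 CPM in mutant cold libraries, 57.0, 25.0 and 24.2 CPM in control cold libraries, 43.8, 27.6 and 31.4 CPM in mutant RT libraries and 50.1, 14.3 and 26.9 CPM in control RT libraries. The groups overlapped in each comparison, and library 1 was the highest of its group in 3 of the 4. C1qa, C1qb and C1qc kept close to each other, with log2 fold changes between mutants and controls in the cold of -0.68 ± 0.46, -0.88 ± 0.45 and -0.61 ± 0.43. Without control cold library 1 these were -0.15, -0.34 and -0.13. The 3 tools called 0 of these genes in every comparison, and in edgeR 0 had an unadjusted p under 0.05.

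Of the lysosome and defence genes, Lyz2, the lysozyme of macrophages, was 47.4, 60.9 and 25.6 CPM in mutant cold libraries, 181, 76.6 and 50.7 CPM in control cold libraries, 78.1, 41.8 and 46.4 CPM in mutant RT libraries and 88.6, 33.4 and 49.3 CPM in control RT libraries. Control cold library 1 stood above the other 11, and mutant cold library 3 below them. Lyz2 is a near copy of Lyz1, so the genes may share reads. Ctss, the cathepsin that cuts the invariant chain before class II loading, was 7.17, 9.02 and 4.74 CPM in mutant cold libraries, 37.5, 12.5 and 10.3 CPM in control cold libraries, 8.58, 7.64 and 7.71 CPM in mutant RT libraries and 13.7, 6.47 and 6.89 CPM in control RT libraries. All 3 mutant cold values of Ctss lay below all 3 control cold values, and the log2 fold change was -1.53 ± 0.47 in edgeR (adjusted p = 0.162) and called in DESeq2 (adjusted p = 0.0226). Without control cold library 1 it was -0.71 ± 0.34. Mpeg1 and Cybb, the catalytic subunit of the phagocyte NADPH oxidase, had -1.01 ± 0.48 and -0.64 ± 0.36 in the same comparison and were not called, and -0.15 and -0.04 without that library.

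The MHC class II genes were compared with class I genes, for which a list of 13 was used. The bases 250 upstream of the start are shown for a pair of class II genes and a pair of class I genes, because both classes are known to be controlled through a shared promoter module whose Y box holds the inverted CCAAT motif bound by NF-Y. They are RefSeq promoters of build GRCm38.p6 in the gene's direction, with GATTGG or its reverse complement CCAATC in capitals. H2-Aa is at chr17:34287824-34288073 on the minus strand, H2-Eb1 at chr17:34305617-34305866, H2-D1 at chr17:35262844-35263093 and B2m at chr2:122147437-122147686 on the plus strand.
H2-Aa: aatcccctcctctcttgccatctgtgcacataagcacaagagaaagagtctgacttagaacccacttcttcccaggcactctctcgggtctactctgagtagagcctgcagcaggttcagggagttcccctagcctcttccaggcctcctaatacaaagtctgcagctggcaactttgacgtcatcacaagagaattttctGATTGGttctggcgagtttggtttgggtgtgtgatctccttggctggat
H2-Eb1: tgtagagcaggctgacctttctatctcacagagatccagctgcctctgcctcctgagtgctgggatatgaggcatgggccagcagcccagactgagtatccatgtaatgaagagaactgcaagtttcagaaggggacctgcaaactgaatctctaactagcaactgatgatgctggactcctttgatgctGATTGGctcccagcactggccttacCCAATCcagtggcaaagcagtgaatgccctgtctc
H2-D1: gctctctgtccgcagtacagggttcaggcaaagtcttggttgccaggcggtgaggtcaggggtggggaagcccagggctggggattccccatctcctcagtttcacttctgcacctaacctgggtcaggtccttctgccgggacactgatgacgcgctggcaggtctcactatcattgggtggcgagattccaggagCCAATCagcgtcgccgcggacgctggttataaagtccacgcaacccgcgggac
B2m: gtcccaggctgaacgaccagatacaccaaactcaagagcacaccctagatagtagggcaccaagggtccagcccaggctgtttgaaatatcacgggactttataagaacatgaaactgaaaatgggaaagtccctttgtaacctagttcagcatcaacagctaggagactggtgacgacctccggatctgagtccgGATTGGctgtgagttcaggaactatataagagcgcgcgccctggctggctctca

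GATTGG was the only motif searched, on both strands. It began 49 bases before the start in H2-Aa and 54 before it in B2m in the forward direction, 53 before it in H2-D1 in the reverse direction, and in H2-Eb1 at 60 (forward) and 35 (reverse). Of 27025 RefSeq promoters of the same length, 15.1% hold the motif. Of the 37 genes, 28 had a promoter entry and 6 of those hold it: Cd163, Cd68, H2-Aa, H2-Eb1, Spp1 and Trem2. The reverse matches, in H2-D1 and at 35 in H2-Eb1, read CCAATC in the gene's direction and so are not inverted CCAAT motifs. The H2-D1 sequence also holds cattgg, an inverted CCAAT that the search did not cover and that is in lower case. Which stretch of H2-D1 is its Y box was not tested. A match is a stretch of letters and not a measured binding site.

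Cd74, the invariant chain that guides class II molecules to the lysosome, was 71.8, 101 and 40.7 CPM in mutant cold libraries, 182, 90.1 and 72.5 CPM in control cold libraries, 147, 130 and 104 CPM in mutant RT libraries and 158, 87.1 and 97.7 CPM in control RT libraries. The mutant cold libraries lay wholly below the mutant RT libraries, and the log2 fold change between them was -0.84 ± 0.40 (adjusted p = 0.180). H2-Aa and H2-Ab1, the alpha and beta chains of I-A, had -0.98 ± 0.45 and -0.78 ± 0.39 in that comparison, also without overlap. H2-Eb1, the beta chain of I-E, had -0.20 ± 0.39, with overlap. Mutant cold library 3 was the lowest of the 12 for each of these 4 genes, and control cold library 1 the highest. EdgeR, DESeq2 and limma-voom called 0 of the 4 in every comparison, with 0 at an unadjusted p under 0.05 in edgeR. With the replicate block edgeR called 1 of them, H2-Aa, lower in mutants in the cold (-1.03, adjusted p = 0.0394). At RT their log2 fold changes between mutants and controls lay between -0.04 and 0.15.

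The other class II machinery was also not called. Of 10 listed genes, among them the class II transactivator Ciita, the peptide-loading H2-DM genes and the RFX factors, 8 were tested and 0 were called in edgeR in any of the 7 comparisons. In the cold all 8 were below 0 between mutants and controls, with a median log2 fold change of -0.67 and 2 at an unadjusted p under 0.05. Ciita averaged 2.11 ± 0.814 CPM in mutant cold libraries, against 4.19 ± 2.17 CPM in control cold libraries (SD, n = 3 each), with the highest value, 6.23 CPM, again in control cold library 1.

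Some class I genes were higher in mutants at RT, and most fell in mutants in the cold. Of the 13 listed genes 4 were higher in mutants than in controls at RT (3.92% of all genes were), with a list median log2 fold change of 0.47 and all 13 above 0. B2m, the light chain of class I, was 1167, 1255 and 1284 CPM in mutant RT libraries, against 565, 461 and 501 CPM in control RT libraries, without overlap, and the log2 fold change was 1.28 ± 0.20 (adjusted p = 0.00392). H2-D1, a class I heavy chain, was 1430, 1471 and 1857 CPM in mutant RT libraries, against 849, 654 and 683 CPM in control RT libraries, with a log2 fold change of 1.12 ± 0.18 (adjusted p = 0.00419). Every mutant RT library was above every control RT library for both genes.

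In mutants 11 of the 13 class I genes fell between cold and RT (7.42% of all genes did), with a median of -0.89. H2-D1 was 610, 646 and 517 CPM in mutant cold libraries, so that every one lay below the mutant RT values above, and the log2 fold change was -1.42 ± 0.18 (adjusted p = 0.000471). Psmb8, an immunoproteasome subunit, was 22.1 ± 3.03 CPM in mutants in the cold and 54.0 ± 5.31 CPM in mutants at RT (SD, n = 3 each), a log2 fold change of -1.29 ± 0.15 (adjusted p = 0.000297). In controls 2 of 13 fell (2.31% of all genes did), Psmb8 by 0.64 ± 0.15 (adjusted p = 0.0285) and Erap1, which trims peptides for class I, by 0.80 ± 0.22 (adjusted p = 0.0496). The difference between the genotypes' cold responses was not called for any of the 13 in edgeR, with 8 at an unadjusted p under 0.05. H2-K1, the other classical heavy chain, is in the plot of antigen presentation genes and was added after its values were seen. H2-K1 and H2-D1 are similar enough to share reads. Without the 4 muscle-rich libraries 0 of 13 were called higher at RT, where 1 control library was then left, 7 fell in mutants and 0 in controls. The control count of 2 was between 0 and 3 when each library was left out in turn, and 0 without control cold library 1, 2 or 3 or control RT library 2 or 3.

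**Figure D3:**
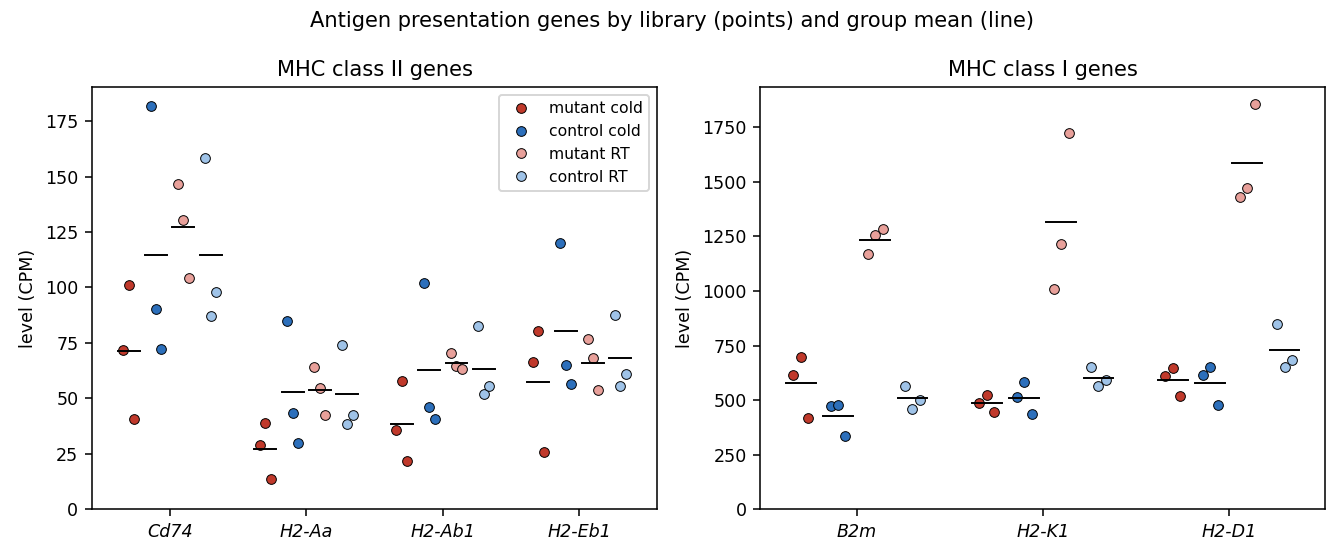
Levels in CPM (y axes) of the MHC class II genes Cd74, H2-Aa, H2-Ab1 and H2-Eb1 on the left and of the class I genes B2m, H2-K1 and H2-D1 on the right, with 1 point per library, a line at each group mean and the groups in the order mutant cold, control cold, mutant RT, control RT. For the class I genes the 3 mutant RT libraries stand above all others, while for the class II genes the groups overlap at RT and control cold library 1 is the highest point.

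The remaining chemokine genes varied mostly with control cold library 1. Ccr2 was 3.16, 3.11 and 2.32 CPM in mutant cold libraries, 14.9, 4.15 and 2.52 CPM in control cold libraries, 3.79, 3.10 and 2.63 CPM in mutant RT libraries and 5.26, 2.98 and 1.65 CPM in control RT libraries. Apart from the value of 14.9 CPM the groups overlapped, and the log2 fold change between mutants and controls in the cold was -1.33 ± 0.58 (adjusted p = 0.305) with that library and -0.22 without it. Ccl2, the ligand of Ccr2, ran from 0.144 to 1.72 CPM and was not called in any comparison.

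The lipid-associated and injury-associated genes had the most negative values between mutants and controls in the cold, with a median log2 fold change of -1.75 over 4 genes. Without control cold library 1 that median was -1.07, with Trem2 at -1.51, Mmp12 at -2.24 and Gpnmb at -0.20. Trem2 was 0.326, 0.290 and 0.412 CPM in mutant cold libraries, against 4.44, 1.12 and 0.838 CPM in control cold libraries. Mmp12, the macrophage elastase, was 0.261, 0.507 and 0.309 CPM in mutant cold libraries, against 4.96, 2.30 and 1.07 CPM in control cold libraries. Neither gene's groups overlapped, and neither was called in edgeR, with log2 fold changes of -2.62 ± 0.92 (adjusted p = 0.208) and -2.95 ± 1.15 (adjusted p = 0.246). At RT both genes overlapped between genotypes, with Trem2 at 0.789, 0.0721 and 0.689 CPM in mutants and 1.43, 0.218 and 0.305 CPM in controls. Gpnmb, a glycoprotein of lipid-laden macrophages, was 3.09, 1.52 and 6.69 CPM in mutant cold libraries, 12.4, 3.85 and 4.76 CPM in control cold libraries, 3.26, 2.38 and 3.20 CPM in mutant RT libraries and 4.28, 3.78 and 1.58 CPM in control RT libraries. Its groups overlapped in the cold, and its log2 fold change there was -0.89 ± 0.57 (adjusted p = 0.484). Spp1, osteopontin, ran from 0 to 3.52 CPM with no order by group.

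Between mutants and controls in the cold 29 of the 37 genes were below 0, with a median log2 fold change of -0.61, against -0.01 over all genes. Groups did not overlap for 1 gene that was higher in mutants, Clec4f, and for 5 that were lower, Cd68, Ctss, Folr2, Trem2 and Mmp12. Over all genes 12.9% were higher and 12% lower without overlap. The size of these differences rested on control cold library 1, since without it 24 genes were below 0 and the median was -0.15. The median difference between the genotypes' cold responses was -0.76 with all 12 libraries and -0.23 without that library. At RT the median between mutants and controls was 0.09, with 22 genes above 0. That median was 0.425 without control RT library 1, and it was below 0 without mutant RT library 1 (-0.0421), control RT library 2 (-0.0301) or control RT library 3 (-0.0646). At RT 1 gene, Lgmn, was lower without overlap and 0 were higher (11.9% and 12.9% of all genes).

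**Figure D4:**
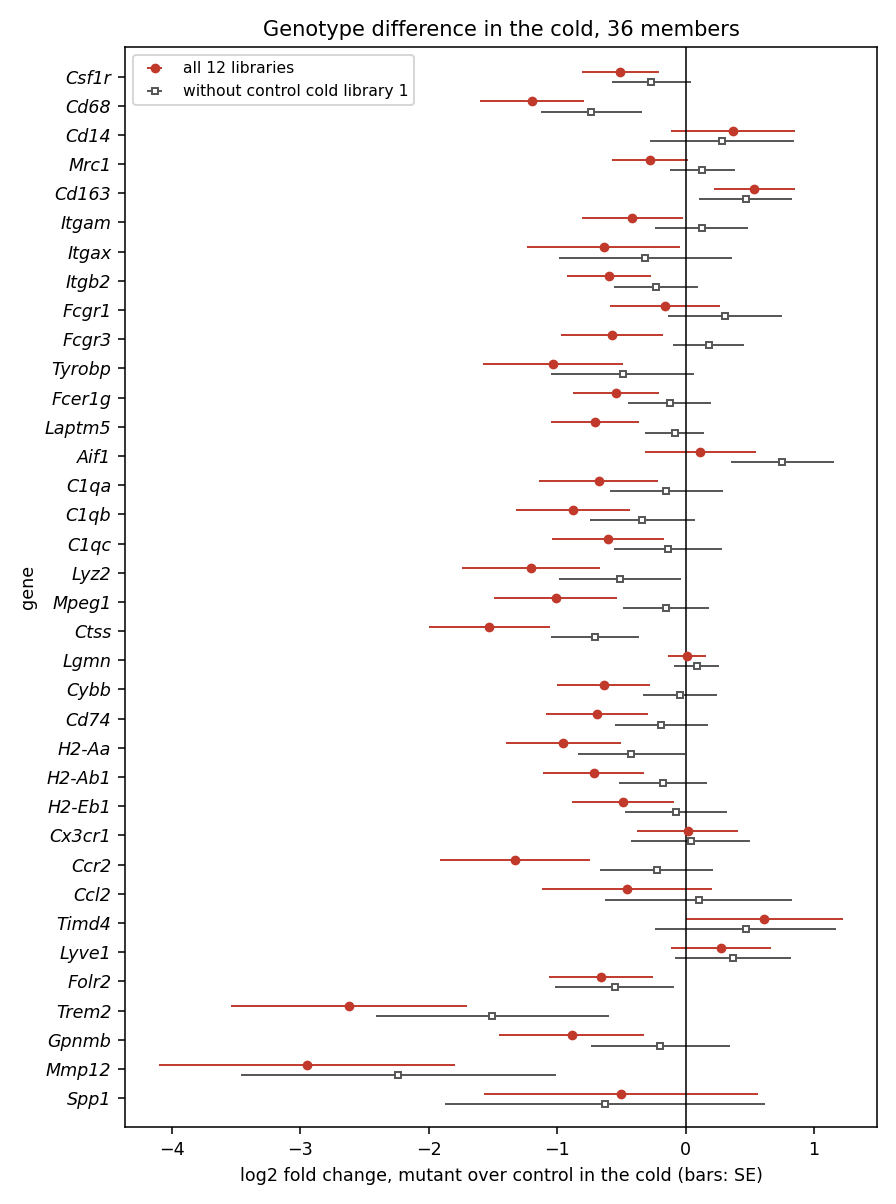
Log2 fold change of mutant over control in the cold (x axis) for 36 of the 37 genes (y axis, by role, Clec4f left out), with SE as bars, fitted on all 12 libraries (filled circles) and without control cold library 1 (open squares). Most circles lie left of 0, and leaving out that library brings the median over the 37 genes to -0.15, while Trem2 and Mmp12 stay the lowest of the 36.

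Other genes of macrophage biology were read from lists. Of 11 tested growth factors and chemokines, 2 rose and 2 fell in mutants in the cold (10.0% and 7.42% of all genes did), among them Cxcl12, a chemokine of stromal cells, with a log2 fold change of 0.90 ± 0.23 (adjusted p = 0.0171), and Ccl11, an eosinophil chemokine, with -1.24 ± 0.32 (adjusted p = 0.0195). The Cxcl12 call was lost without mutant RT library 1 or 3 (adjusted p up to 0.0555), and the Ccl11 call without mutant RT library 1 or mutant cold library 1 (up to 0.0750). In controls 2 of these 11 rose (4.31% of all genes did), Cx3cl1 and Cxcl12, with Cxcl12 higher by 1.26 ± 0.23 (adjusted p = 0.00881). Of 10 tested macrophage transcription factors, Zeb2 fell in mutants in the cold (-0.96 ± 0.16, adjusted p = 0.00199). Of 14 tested receptors, Siglec1, a sialic acid receptor of resident macrophages, fell in mutants in the cold, at 4.82 ± 2.56 CPM in the cold and 12.9 ± 3.68 CPM at RT (-1.41 ± 0.36, adjusted p = 0.0195), a call lost without mutant RT library 3 or mutant cold library 1 or 2 (up to 0.0773). Of 7 tested cytokine and activation genes, Chil3 fell in the cold averaged over genotypes (-1.99 ± 0.63, adjusted p = 0.0402), against 11.0% of all genes. That call was lost when any library other than mutant RT library 2 or 3 or control RT library 1 was left out (up to 0.106).

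Several other lysosomal genes differed between groups. Of 14 lysosomal proteases and lipid-handling genes, 4 were higher and 1 lower in mutants than in controls at RT (3.92% and 2.32% of all genes were). Acp5, an acid phosphatase, had a log2 fold change of 1.24 ± 0.17 (adjusted p = 0.00168), Ctsb, a cathepsin, 0.83 ± 0.17 (adjusted p = 0.0150) and Lipa, the lysosomal acid lipase, -0.73 ± 0.18 (adjusted p = 0.0297). The Ctsb call was lost without mutant RT library 2 or 3 or control RT library 3 (adjusted p up to 0.0746), and the Lipa call when any 1 of 9 libraries was left out (up to 0.115), at log2 fold changes below 0 throughout. Like Lgmn, Lipa rose in mutants in the cold (1.91 ± 0.18, adjusted p = 0.000108), where 3 of the 14 rose and 3 fell (10.0% and 7.42% of all genes did). Ctsz, another cathepsin, rose with 2.25 ± 0.24 in mutants (adjusted p = 0.000179) and with 1.55 ± 0.24 in controls (adjusted p = 0.00385), where Lipa was the other gene of 2 that rose (4.31% of all genes did). These genes are expressed by adipocytes as well as by macrophages, and the source of their RNA was not tested.

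Markers of other cell types were measured in the same libraries. T and NK cell genes summed to 3.24 to 11.2 CPM, B cell genes to 1.47 to 5.93 CPM, neutrophil genes to 2.74 to 7.34 CPM and dendritic cell genes to 13.6 to 23.8 CPM over the 12 libraries. By group the dendritic cell sum was 15 to 19.0 CPM in mutant cold, 13.6 to 23.8 CPM in control cold, 15.2 to 21.6 CPM in mutant RT and 16.3 to 22.5 CPM in control RT libraries. In edgeR 0 T and NK, B and dendritic cell genes were called in any comparison. Of 4 tested neutrophil genes, 1 rose in mutants in the cold (Retnlg, adjusted p = 0.0435), against 10.0% of all genes. Of 5 tested mast cell genes, 1 was higher in mutants at RT (Kit, 0.0290), against 3.92% of all genes. With 1 library left out these adjusted p-values reached 0.144 and 0.107. Of 7 endothelial genes, 3 rose in mutants in the cold and 1 in controls, Emcn (10.0% and 4.31% of all genes did), the last with an adjusted p of up to 0.114 when 1 library was left out. Of 8 brown adipocyte genes, Plin1, a lipid droplet protein, was higher in mutants at RT (0.93 ± 0.15, adjusted p = 0.00392). It fell in mutants in the cold (-0.53 ± 0.15, adjusted p = 0.0274). Adipoq, the adipokine adiponectin, fell in the cold in mutants (-1.31 ± 0.16, adjusted p = 0.000429) and in controls (-0.75 ± 0.16, adjusted p = 0.0211). Ucp1, which lets mitochondria release energy as heat, was lower in mutants at RT (-1.77 ± 0.39, adjusted p = 0.0199) and rose in the cold in mutants (2.86 ± 0.41, adjusted p = 0.000793) and in controls (1.42 ± 0.39, adjusted p = 0.0492). At RT 1 of the 8 was thus higher and 1 lower in mutants (3.92% and 2.32% of all genes were). In the cold 1 rose and 2 fell in mutants (10.0% and 7.42% of all genes did), and 1 rose and 1 fell in controls (4.31% and 2.31%). The RT calls of Plin1 and Ucp1 were lost without the 4 muscle-rich libraries. With 1 library left out the adjusted p reached 0.117 for Plin1 in mutants in the cold, 0.101 for Adipoq in controls, and for Ucp1 0.0844 at RT and 0.132 in controls in the cold. The 8 genes summed to 16388 to 28931 CPM in mutant cold, 25444 to 26992 CPM in control cold, 15086 to 21753 CPM in mutant RT and 17092 to 18251 CPM in control RT libraries. The sum of 16388 CPM was that of mutant cold library 3, against 28120 and 28931 CPM in mutant cold libraries 1 and 2. Of 7 fibroblast genes, 1, Pdgfrb, was lower in mutants averaged over temperatures (-0.41 ± 0.11, adjusted p = 0.0423, and up to 0.105 with 1 library left out), against 2.93% of all genes. The other 6 were above 0 there, and the list median was 0.05. Dcn, the matrix proteoglycan decorin, was the 1 of 7 that fell in the cold averaged over genotypes (-0.66 ± 0.19, adjusted p = 0.0225), against 11.0% of all genes. The fibroblast sum was 483 to 2165 CPM in mutant cold, 663 to 1147 CPM in control cold, 1436 to 1672 CPM in mutant RT and 1189 to 1939 CPM in control RT libraries. Mutant cold library 3, the library rich in epithelial transcripts, held the 2165 CPM, against 584 and 483 CPM in mutant cold libraries 1 and 2. Muscle transcripts took 0.00552% to 2.84% of counts, and were highest in control RT libraries 1 and 3, mutant RT library 3 and control cold library 3. The part of these cell types in the results was not tested.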

How the data were processed

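Gene expression was measured by RNA-seq in 12 BAT libraries, in 4 groups taken from the labelled Cre status and temperature. RNA came from a TRIzol and column extraction and libraries from a NEBNext Ultra kit, per the labels' protocols. The authors deposited raw counts per gene, for which the submitters' processing notes name STAR, featureCounts and build mm9. Not given in the sources used here are versions, annotation, strand setting and how reads with several matches were handled. Reads of near copies, of overlapping genes and of antisense genes therefore cannot be told apart.

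Counts were tested as deposited with edgeR 4.0.16 in R 4.3.3: filterByExpr (minimum count 10, minimum total 15), TMM, a robust quasi-likelihood fit on all 12 libraries with 1 coefficient per group, and a two-sided F-test for 7 contrasts, of which 4 compare 2 groups, 1 is the interaction and 2 are averages over genotypes or temperatures. P-values were adjusted by Benjamini-Hochberg over 15265 genes and called below 0.05. Comparisons that share a group are not independent. The SE is that implied by the F statistic. Exon lengths are from GENCODE M21 on GRCm38, another build than the counts, and no gene coordinates are given on mm9. Intervals, and the limit of 3 counts for a count of 0, reflect counting error alone, because PCR reads lacking molecular identifiers are not independent. Replicates differed well beyond sampling noise (chi-square per degree of freedom 38.2 to 234), so each library counts once.

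The 37 genes, the other gene lists and the comparisons were chosen with earlier results of these data known. Values in all libraries are given for genes called in any comparison, the gene with the highest CPM in each of 8 role groups, and the gene with the smallest p in each comparison of groups and in the interaction. From other lists at most 2 called genes per comparison and direction are named. Further genes named beside these, Trem2 and Mmp12 in each cold library among them, were chosen after their values were seen. In these lists Adgre1 was matched as Emr1, and Trbc2, Ighm and Ly6g had no match. The result for 1 gene that this rule names is not reported here.

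The settings tried were DESeq2 1.42.0, limma-voom (limma 3.58.1) with quality weights, RLE size factors, no filter, CPM of at least 1 in 3 libraries, only the groups compared, a replicate block, leaving out each library, leaving out the 4 muscle-rich libraries together, and the muscle share as a covariate. After the data were seen, leaving out control cold library 1 and mutant cold library 3 together was added. Groups share replicate numbers, and the pairing check depended on the scale. For log2 CPM (prior count 1), correlations of same-numbered deviations were over 0.1 for all 3 numbers at RT (0.165, 0.719, 0.488) and between control groups (0.142, 0.647, 0.456). With log2(CPM + 1) this held only between the mutant groups (0.264, 0.186, 0.62). The labels link no number to a litter or day, so pairing was treated as unsettled.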

Additional observations from a re-analysis of the deposited data

How the results depend on the processing

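Few called genes and 3 libraries per group limit these results. None of the 100 calls made in edgeR among the listed genes, members and others, changed direction under any setting that gave a value. When some single library was left out, 37 of them were lost. Leaving out the 4 muscle-rich libraries also ended many of the 100. Among these were Acp5 at RT, Cxcl12 in both genotypes, Ctsz and Lipa in controls, and Dcn. That fit leaves 1 control RT library, so lost precision and muscle content cannot be told apart there. Among the 37 genes, leaving out each library gave 0 to 2 calls between mutants and controls at RT (1 with all libraries), 0 in the cold (0), 1 to 5 between cold and RT in mutants (3), 0 to 1 in controls (0), 0 to 1 for the averaged genotype difference (0) and 4 to 7 for the averaged cold difference (4). The RT count was 0 when only the groups compared were fitted. DESeq2 called 1 in the cold between genotypes, 1 between cold and RT in controls, 1 in the interaction, 2 for the averaged genotype difference, 4 between cold and RT in mutants and 5 for the averaged cold difference. Limma-voom called 1, 2, 1 and 2 there, 7 between cold and RT in mutants and 8 for the averaged cold difference. Without the 4 muscle-rich libraries the counts were 0 at RT, 1 between cold and RT in mutants and 0 for the averaged cold difference, and without control cold library 1 and mutant cold library 3 the last of these was 10 and the mutant count 7. For the averaged genotype difference the filter of CPM of at least 1 in 3 libraries, the replicate block and the muscle covariate each gave 1 (Lgmn, Lgmn and Cd163).

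With the replicate block the counts were otherwise 1 at RT, 0 between genotypes in the cold, 4 between cold and RT in mutants (H2-Aa added), 0 in controls, 0 in the interaction and 5 for the averaged cold difference (Cd14 added).

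Medians over the 37 genes moved with control cold library 1 and with other libraries. With single libraries left out they ran from -0.849 to -0.149 between mutants and controls in the cold, from -0.191 to 0.675 between cold and RT in controls and from -1.03 to -0.231 in the interaction. Without control cold library 1 and mutant cold library 3 they were -0.106, -0.189 and -0.191, and without the muscle-rich libraries the control cold median was 0.762.

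Of the class I genes, the muscle-rich libraries left out gave 0 higher at RT, 7 lower in mutants and 0 lower in controls, where limma-voom gave 5, the muscle covariate 1 and single libraries left out 0 to 3 (2 with all). Over all genes, counts of calls under other settings ran from 129 to 2844 at RT (952), 18 to 1119 in the cold between genotypes (171), 1218 to 5075 between cold and RT in mutants (2663), 13 to 3402 in controls (1010) and 26 to 1121 in the interaction (73). The cause of these shifts was not tested.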
